A study of Mus musculus with 12 samples.

Results

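The genes described are 32 coagulation and fibrinolysis factors, chosen by symbol: the plasma proteins that build, cross-link, restrain and dissolve a fibrin clot, with the enzymes of the vitamin K cycle. All 32 were in the deposited table of 13267 genes, each under 1 Ensembl transcript ID, and all 32 passed the filter on low values that left 12720 genes for testing. The livers came from C57BL/6 mice made obese and steatotic on a high-fat diet (HFD), which all groups share. Of the samples, 6 came from mice that carried a subcutaneous scaffold control. The other 6 came from mice given 4-HPAA (4-hydroxyphenylacetic acid, a phenolic acid that gut bacteria form from polyphenols) by the same route, for 6 weeks. The labels give no age, and nothing beyond the replicate numbers says how the samples of a group are separate. The p-values therefore speak only of the spread among these samples, which may be technical. Below, a liver means 1 such sample.

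Most clotting factors are made by hepatocytes and secreted into plasma. Tissue factor with factor VII starts a cascade of serine proteases that ends with thrombin, which cuts fibrinogen into fibrin. Antithrombin and related serpins, tissue factor pathway inhibitor and the protein C system hold the cascade back, and plasmin, formed from plasminogen, dissolves the clot. Several factors work only after vitamin K-dependent carboxylation of their glutamate residues, and fibrinogen is also an acute phase protein of the liver.

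Normalised read counts of the libraries summed to between 22869813 and 25255447. All 10 hepatocyte markers on the list were present, with summed values of 2461847 to 3030919 in control and 2094189 to 2758253 in 4-HPAA libraries. Most of this sum was albumin, Alb, at a mean of 1954490 in control and 1511590 in 4-HPAA livers, a log2 difference of −0.38. Of the 10 markers 6 had positive differences, and the median log2 difference was 0.10. At an unadjusted p under 0.05, 2 were higher and 2 lower (20% each), against 7.26% and 7.56% of all tested genes. The part of the hepatocyte markers in the differences below was not tested. Among the 32 genes, control replicate 5 had the lowest value of all 12 libraries for 22 genes, and it also had the lowest library total, 22869813. 4-HPAA replicate 3 was lowest for 5 genes and highest for 7. Counts are therefore also given without these 2 libraries, an alternative added after the data were seen.

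The comparison of 4-HPAA with scaffold control asks how expression of these factors differed in steatotic livers given the compound. Fibrinogen genes, plasminogen, vitronectin, the carboxypeptidase gene Cpb2 and the carboxylase gene Ggcx were higher on average in 4-HPAA livers, while the 3 genes of low level, F3, Tfpi and Thbd, were lower on average. In limma with Benjamini-Hochberg adjustment, 0 of the 32 genes passed an adjusted p of 0.05, as did 0% of the 12720 genes tested. The smallest adjusted p among the 32 was 0.142, for Ggcx. Without 4-HPAA replicate 4, 3 of the 32 passed (Ggcx, Vtn and Fgl1, all higher) among 193 of all genes, and with any other library left out 0 did. At an unadjusted p under 0.05 there were 14 of 32 genes on the higher side (43.8%) against 7.26% of all tested genes, and 0 of 32 on the lower side against 7.56%. Positive differences were found for 25 of the 32, against 49.8% of all tested genes. The median log2 difference of the 32 was 0.17, and that of all tested genes was −0.00092. Without control replicate 5 and 4-HPAA replicate 3 the higher side held 13 genes, with a median of 0.15 over the 32, and 8.81% of all tested genes. No gene of the 32 had groups that did not overlap, a pattern that 0.307% of all tested genes had with 4-HPAA higher and 0.354% with it lower.

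The 4-HPAA livers were not alike. Of the 32 genes, 4-HPAA replicates 1, 2, 3 and 5 had 21, 22, 19 and 18 above every control value. 4-HPAA replicate 6 had 9 and 4-HPAA replicate 4 had 0. The median deviation of the 32 genes from the control mean (log2) was 0.27, 0.31, 0.20 and 0.25 in replicates 1, 2, 3 and 5, and 0.05 and 0.11 in replicates 4 and 6. In controls it lay between −0.20, in replicate 5, and 0.06. Genes of the acute phase response were kept as a reference list of 19 genes that holds none of the 32. At an unadjusted p under 0.05, 12 of the 19 (63.2%) were higher, against 7.26% of all tested genes. On the lower side there were 0, against 7.56%. The median log2 difference of the 19 genes was 0.57. Their summed values were 279405 to 329682 in control and 308065 to 667488 in 4-HPAA libraries. The part of the acute phase response in the differences below was not tested.

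**Figure D1:**
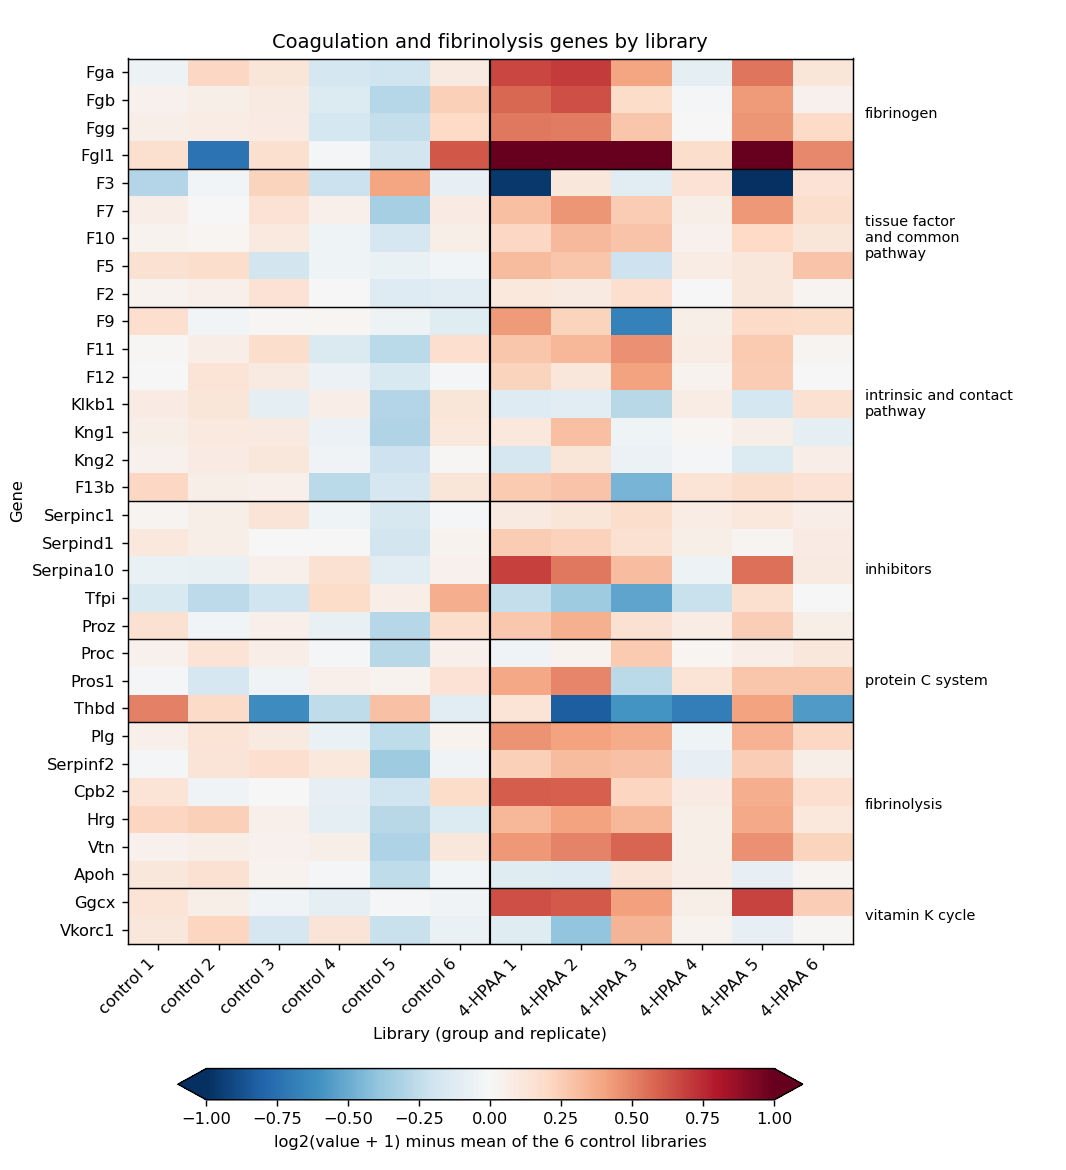
Heat map of the 32 genes (rows, grouped by role) in 12 libraries (columns), coloured by log2(value + 1) minus the mean of the 6 control libraries, with colours limited at 1 in both directions. 4-HPAA replicates 1, 2, 3 and 5 are red for most fibrinogen and fibrinolysis genes, 4-HPAA replicate 4 stays close to the control mean with 0 of 32 genes above every control, and control replicate 5 is blue in most rows.

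Fibrinogen, the substrate of the clot, is built from 3 chains encoded side by side on chromosome 3 (GRCm38, GENCODE M21): Fgg at chr3:83007724-83015049, Fga at chr3:83026076-83033627 and Fgb at chr3:83040141-83049863, the last on the minus strand. The values of Fga in control replicates 1 to 6 were 76088, 90712, 85757, 69765, 68714 and 83642, and in 4-HPAA replicates 1 to 6 they were 125142, 127488, 103422, 73758, 114144 and 85702. Thus 4-HPAA replicates 1, 2, 3 and 5 lay above every control, and replicates 4 and 6 within the control range. Mean Fga was 79113 ± 8987 in control and 104943 ± 21661 in 4-HPAA livers (SD; n = 6 per group). The log2 difference was 0.39 ± 0.13 (SE; limma, unadjusted p = 0.0114, adjusted p = 0.211).

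Fgb ran from 62264 over a median of 78598.5 to 89601 in controls and from 75198 over 94235.5 to 118658 with 4-HPAA, a log2 difference of 0.31 ± 0.13. Fgg ran from 50679 over 62572 to 68493 in controls and from 59996 over 76842.5 to 86065 with 4-HPAA, a log2 difference of 0.33 ± 0.11. Both groups overlapped for each chain, with 3 of 6 4-HPAA livers above every control for Fgb and 4 of 6 for Fgg. The adjusted p was 0.277 for Fgb and 0.205 for Fgg (limma). With quantile normalisation the log2 differences were smaller, 0.20 for Fgb and 0.21 for Fgg.

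The 3 chains kept close to one ratio from liver to liver. Fgg to Fgb lay between 0.722 and 0.873 and Fga to Fgb between 0.933 and 1.2 over the 12 libraries, while the sum of the 3 genes ran from 181657 to 331864. This sum was 0.794 to 0.989% of the library total in controls and 0.849 to 1.32% with 4-HPAA. Its 4 highest values were in 4-HPAA replicates 2, 1, 5 and 3, in that order. The serum amyloid gene Saa1, picked from the acute phase reference list, had the same order at 63934, 37622, 27065 and 12759. Saa2, Orm1 and Apcs of that list shared the order, and other genes of it did not. Hp was highest in 4-HPAA replicate 1, at 156413, and Saa3 in 4-HPAA replicate 4, at 369. A link between fibrinogen and these genes was not tested.

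Fgl1, a liver-secreted protein with a fibrinogen-like domain that forms no clot, had the largest difference of the 32 genes. Its values in control replicates 1 to 6 were 6605, 3543, 6613, 5839, 5218 and 9125, and in 4-HPAA replicates 1 to 6 they were 23194, 24957, 12448, 6690, 21567 and 8269. The 4 livers high for Fga were again above every control, and replicates 4 and 6 within the control range. The ratio of the group means was 2.63, and the log2 difference was 1.27 ± 0.34 (limma, unadjusted p = 0.00238, adjusted p = 0.161).

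Because the fibrinogen genes were higher in the same livers, the stretches before their starts are shown, with those of Vtn and Ggcx for comparison. They are from RefSeq (GRCm38.p6), which held a promoter window for 26 of the 32 genes, and each begins 250 bases before the RefSeq start and stops where the gene begins in either annotation. Capitals mark matches on either strand to CTGGGA (a core of interleukin-6 response elements), TTGCNNAA (of the C/EBP kind) and GTTAAT (a half-site of HNF1). These motifs were picked after the sequences and values were seen. A match is a run of letters and not a shown binding site.

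Fga, chr3:83025903-83026075, plus strand: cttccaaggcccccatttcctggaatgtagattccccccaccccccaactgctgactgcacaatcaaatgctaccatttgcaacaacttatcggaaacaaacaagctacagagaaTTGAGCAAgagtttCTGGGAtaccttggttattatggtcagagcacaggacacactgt

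Fgb, chr3:83049864-83050113, minus strand: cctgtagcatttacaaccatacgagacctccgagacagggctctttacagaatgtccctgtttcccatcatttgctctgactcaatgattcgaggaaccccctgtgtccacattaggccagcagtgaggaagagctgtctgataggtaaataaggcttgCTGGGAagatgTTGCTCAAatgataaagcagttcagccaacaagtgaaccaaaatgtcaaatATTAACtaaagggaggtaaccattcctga

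Fgg, chr3:83007474-83007723, plus strand: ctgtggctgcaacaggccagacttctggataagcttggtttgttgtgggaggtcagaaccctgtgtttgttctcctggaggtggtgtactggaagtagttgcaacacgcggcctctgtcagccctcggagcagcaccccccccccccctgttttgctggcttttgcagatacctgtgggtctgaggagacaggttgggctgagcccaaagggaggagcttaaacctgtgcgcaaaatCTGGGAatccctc

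Vtn, chr11:78498870-78499090, plus strand: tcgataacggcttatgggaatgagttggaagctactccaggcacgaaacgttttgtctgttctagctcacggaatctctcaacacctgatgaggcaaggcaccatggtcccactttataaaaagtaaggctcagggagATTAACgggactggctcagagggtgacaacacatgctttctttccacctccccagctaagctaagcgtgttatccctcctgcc

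Ggcx, chr6:72414058-72414307, plus strand: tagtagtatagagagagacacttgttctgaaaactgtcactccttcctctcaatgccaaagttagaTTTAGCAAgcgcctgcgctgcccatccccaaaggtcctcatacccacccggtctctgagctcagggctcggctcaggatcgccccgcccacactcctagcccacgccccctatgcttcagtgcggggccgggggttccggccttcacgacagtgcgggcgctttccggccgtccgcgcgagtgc

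Each of the 3 fibrinogen stretches held 1 CTGGGA, at bases −121 to −116 before the start in Fga, −91 to −86 in Fgb and −13 to −8 in Fgg. A TTGCNNAA match stood beside it in Fga, at −135 to −128, and in Fgb, at −80 to −73, and not in Fgg. GTTAAT matched in Fgb at −29 to −24, in Vtn at −112 to −107 and in Fga at −43 to −38, which lies past the end of the printed stretch. Of the 26 genes with a window, CTGGGA was in 34.6%, TTGCNNAA in 30.8% and GTTAAT in 19.2% of the 250 bases before the start. Among all 32851 such windows of the RefSeq set these shares were 27%, 9.56% and 6.43%. The latter count single windows and are not limited to tested genes. The former count genes with a match in any of their windows, so the shares are not alike in kind. Matches were found for genes with and without a difference. Klkb1, at a log2 difference of −0.08, held both CTGGGA and TTGCNNAA.

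**Figure D2:**
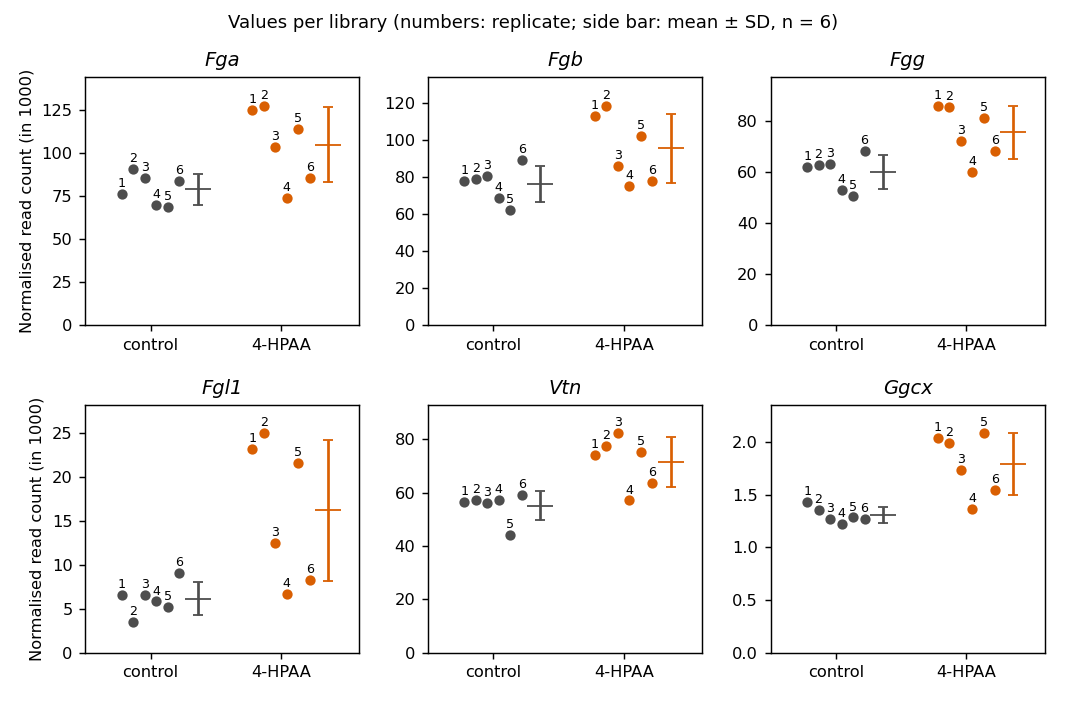
Normalised read counts (in units of 1000, axes from 0) of Fga, Fgb, Fgg, Fgl1, Vtn and Ggcx in each control (grey) and 4-HPAA (orange) library, numbered by replicate, with mean ± SD beside them (n = 6 each). 4-HPAA replicates 1, 2 and 5 are above every control in all 6 panels, and 4-HPAA replicate 4 lies within the control range in each.

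Tissue factor and the common pathway were mixed. F7, the protease that tissue factor activates, ran from 2237 over a median of 2930.5 to 3115 in controls and from 2928 over 3411 to 3834 with 4-HPAA. Replicate 4 was the only 4-HPAA liver not above every control. The log2 difference of F7 was 0.28 ± 0.09 (limma, unadjusted p = 0.0102, adjusted p = 0.206).

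F10, the protease where the intrinsic and extrinsic arms meet, ran from 8567 over 9783.5 to 10270 in controls and from 9923 over 11078 to 12063 with 4-HPAA. Again 5 of 6 4-HPAA livers lay above every control, at a log2 difference of 0.20 ± 0.07 (limma, adjusted p = 0.225). F7 and F10 are neighbours on chromosome 8 with Proz, which encodes the cofactor protein Z, within chr8:13026034-13076026. Proz ran from 8283 over 10228.5 to 11441 in controls and from 10541 over 11624 to 12979 with 4-HPAA. All 3 neighbours were among the 14 genes with an unadjusted p under 0.05, against 7.26% of all tested genes on the higher side. Proz was near that threshold (limma, unadjusted p = 0.0467).

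F5, the cofactor of activated factor X, ran from 11299 over 12533 to 14485 in controls and from 11110 over 14731 to 15980 with 4-HPAA, with replicate 3 the lowest of all libraries. Its log2 difference was 0.14 ± 0.10, and that of prothrombin, F2, was 0.08 ± 0.07. F3, tissue factor itself, is a gene of low level here. It ran from 123 over a median of 145.5 to 199 in controls and from 63 over 152 to 167 with 4-HPAA. The median of F3 was thus not lower with 4-HPAA, unlike its mean. 4-HPAA replicates 1 and 5, at 77 and 63, were the 2 livers below every control, and the log2 difference of −0.32 ± 0.25 was −0.13 without replicate 5.

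The genes of the intrinsic and contact pathway were grouped with F13b, which belongs to the cross-linking factor XIII. Of these 7 genes 1 (14.3%) was higher at an unadjusted p under 0.05, against 7.26% of all tested genes (14.8% in either direction). This was F11, a protease that activates factor IX, which ran from 2062 over 2551.5 to 2804 in controls and from 2540 over 3000.5 to 3417 with 4-HPAA. The log2 difference was 0.24 ± 0.10 (limma, unadjusted p = 0.0266, adjusted p = 0.273), and 0.14 without control replicate 5 and 4-HPAA replicate 3. F12, which starts the contact pathway, ran from 10286 over 11399.5 to 12587 and from 11459 over 12887.5 to 15110, a log2 difference of 0.17 ± 0.08 with 3 of 6 4-HPAA livers above every control.

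Klkb1, plasma prekallikrein, lies next to F11 at chr8:45266689-45294859 and did not share its direction. It ran from 9288 over 11957.5 to 12360 in controls and from 9380 over 10485 to 12641 with 4-HPAA, a log2 difference of −0.08 ± 0.09. Of the 50-base stretches in its transcripts, 42.7% also occur in the overlapping model Gm45753, so its own level is uncertain. The difference between F11 and Klkb1 was not itself tested.

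The 2 kininogen genes, precursors of bradykinin, stand on chromosome 16 beside Hrg. Kng1 was at a log2 difference of 0.06 ± 0.09 and Kng2 at −0.03 ± 0.08, and the sign of Kng1 turned with quantile normalisation, to −0.11, and without control replicate 5, to −0.0037. They share 50-base stretches (17.2% of those of Kng1 and 19.4% of those of Kng2), so reads may have been divided between them. F9, a protease activated by factor XI, was at 0.07 ± 0.14, and F13b, the carrier subunit of the cross-linking factor XIII, at 0.09 ± 0.12. Both were lowest in 4-HPAA replicate 3, where F9 was 3288 against 5461 to 7043 in the other 4-HPAA livers, and F13b was 3705 against 5632 to 6235. Without control replicate 5 and 4-HPAA replicate 3 their log2 differences were 0.21 ± 0.08 and 0.17 ± 0.09.

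**Figure D3:**
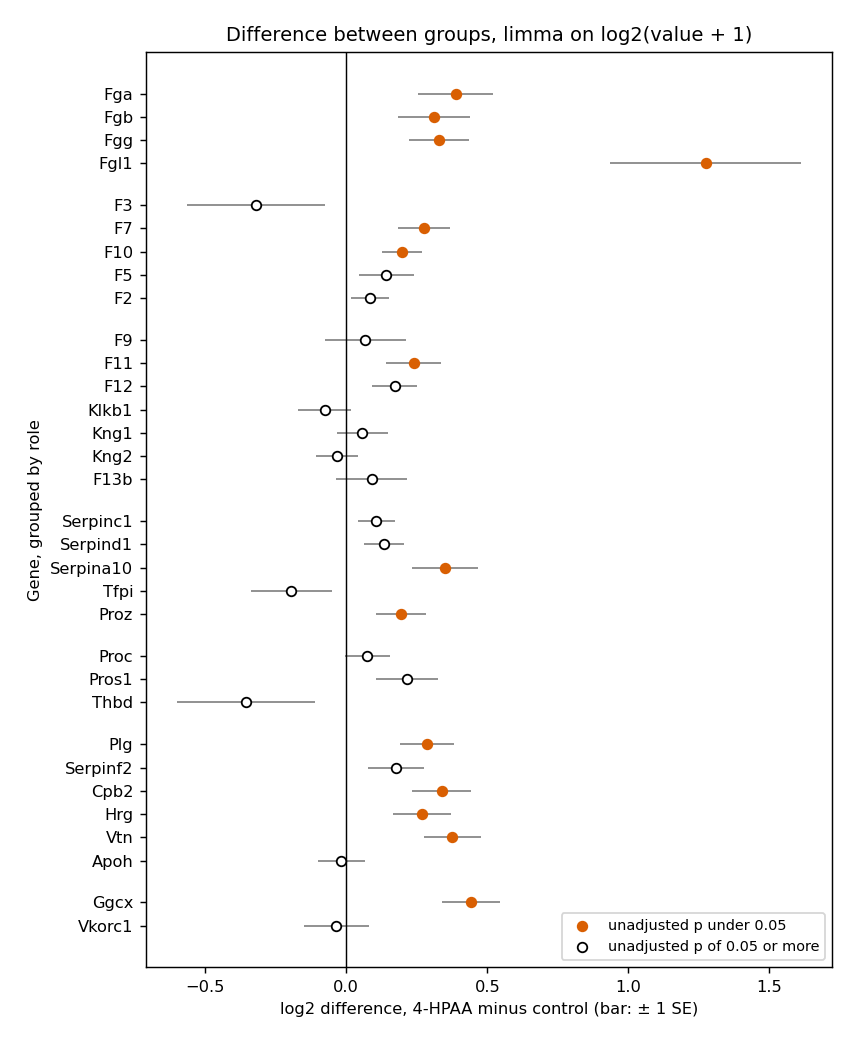
Log2 difference, 4-HPAA minus control, of the 32 genes grouped by role, from limma on log2(value + 1), with bars of ± 1 SE. Orange points are the 14 genes with an unadjusted p under 0.05, all to the right of 0. Fgl1 at 1.27 is the farthest right, and Thbd, F3 and Tfpi are the farthest left.

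Among the inhibitors, Serpina10, the protein Z-dependent inhibitor of factor Xa, had the largest difference. It ran from 5185 over 5573.5 to 6219 in controls and from 5401 over 7509.5 to 9009 with 4-HPAA, with replicates 1, 2, 3 and 5 above every control. It differed by 0.35 ± 0.12 on the log2 scale (limma, unadjusted p = 0.00927, adjusted p = 0.206). Its cofactor Proz was at 0.19 ± 0.09 (limma, unadjusted p = 0.0467, adjusted p = 0.33).

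Serpind1, heparin cofactor II, ran from 11812 over 13596.5 to 14427 and from 13729 over 14594 to 16005, a log2 difference of 0.13 ± 0.07. Serpinc1, antithrombin, was at 0.11 ± 0.07. With quantile normalisation the sign of Serpinc1 turned, to −0.0096, as did that of F2, to −0.05.

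Of the protein C system, in which thrombomodulin turns thrombin into an activator of protein C, 0 of 3 genes had an unadjusted p under 0.05, against 14.8% of all tested genes in either direction. The cofactor gene Pros1 ran from 1295 over 1468.5 to 1609 in controls and from 1208 over 1767 to 2044 with 4-HPAA. Replicate 3, at 1208, was the lowest of all 12 libraries, and replicates 1, 2, 5 and 6 were above every control. The log2 difference was 0.21 ± 0.11, and 0.32 ± 0.08 without control replicate 5 and 4-HPAA replicate 3 (limma, adjusted p = 0.208). Proc, protein C, ran from 12053 over 15112 to 16120 and from 14247 over 15174 to 17504, a log2 difference of 0.07 ± 0.08 that turned to −0.02 without those 2 libraries.

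Thbd, thrombomodulin, and Tfpi, tissue factor pathway inhibitor, are chiefly products of endothelium, and both were low. Thbd ran from 46 over 74 to 102 in controls and from 40 over 47.5 to 95 with 4-HPAA, a log2 difference of −0.36 ± 0.24 that was −0.51 ± 0.23 without 4-HPAA replicate 5 (limma, unadjusted p = 0.0438, adjusted p = 0.418). Tfpi ran from 113 over 132 to 175 and from 94 over 115.5 to 152, a log2 difference of −0.20 ± 0.14. It was −0.12 without control replicate 6, −0.13 without 4-HPAA replicate 3 and −0.08 with array weights. At such values counting error adds to the spread, and each gene had 2 of 6 4-HPAA livers below every control. Of 12 endothelial markers, 11 had negative differences, with a median of −0.21, while 49.8% of all tested genes had positive ones. On the lower side 2 of the 12 (16.7%) had an unadjusted p under 0.05, against 7.56% of all tested genes. Summed values of the endothelial markers were 6279 to 7388 in control and 5548 to 7306 in 4-HPAA libraries. The part of these cells in Thbd and Tfpi was not tested, and in whole liver fewer cells of a type and less RNA per cell cannot be told apart.

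The fibrinolysis genes had 4 of 6 members on the higher side at an unadjusted p under 0.05, with a median log2 difference of 0.28. That is 66.7%, against 7.26% of all tested genes, whose median was −0.00092. Plg, plasminogen, ran from 46866 over 57439.5 to 61231 in controls and from 54071 over 71464 to 75960 with 4-HPAA. Every 4-HPAA liver other than replicate 4 lay above every control. The log2 difference was 0.29 ± 0.10 (limma, unadjusted p = 0.00909, adjusted p = 0.206), but 0.13 with quantile normalisation.

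Vtn, vitronectin, an adhesive protein of plasma and matrix, had control values of 56330, 57061, 56287, 57121, 44130 and 59264 in replicates 1 to 6. With 4-HPAA they were 74172, 77407, 82208, 57060, 75063 and 63776. Again 5 of 6 4-HPAA livers were above every control, and replicate 4 stood among the controls. The log2 difference was 0.38 ± 0.10 (limma, unadjusted p = 0.00232, adjusted p = 0.161), and 0.27 ± 0.09 without control replicate 5, its lowest library, and 4-HPAA replicate 3, its highest.

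Cpb2, a carboxypeptidase that slows fibrinolysis by trimming lysines from fibrin, ran from 5977 over 6762 to 7778 in controls and from 7271 over 8383.5 to 10417 with 4-HPAA. Replicates 1 and 2, at 10417 and 10356, were the highest, and replicates 4 and 6 overlapped the controls. This gave a log2 difference of 0.34 ± 0.10 (limma, unadjusted p = 0.00555, adjusted p = 0.195). Hrg, a histidine-rich plasma protein that binds plasminogen and heparin, was at 0.27 ± 0.10 (limma, unadjusted p = 0.0192), and Serpinf2, the inhibitor of plasmin, at 0.18 ± 0.10. Serpinf2 was at 0.11 without control replicate 5 and at 0.05 with quantile normalisation. Apoh, beta-2 glycoprotein I, was at −0.02 ± 0.08, with all 6 4-HPAA values (50789 to 60756) inside the control range of 46481 to 61710.

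In the vitamin K cycle, Ggcx, the carboxylase that modifies the vitamin K-dependent factors, had the smallest p of the 32 genes. Its values in control replicates 1 to 6 were 1430, 1356, 1268, 1218, 1283 and 1270, and in 4-HPAA replicates 1 to 6 they were 2037, 1991, 1729, 1360, 2081 and 1548. All 6 4-HPAA livers were above the control mean and 5 above every control. Means were 1304.2 ± 76 and 1791 ± 294 (SD, n = 6 each), and the log2 difference was 0.44 ± 0.10 (limma, unadjusted p = 0.000716, adjusted p = 0.142). Ggcx passed with array weights (0.47 ± 0.10, adjusted p = 0.0423) and without 4-HPAA replicate 4 (0.52 ± 0.09, adjusted p = 0.0197), and its adjusted p reached 0.298 at most over 24 alternatives (limma).

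Vkorc1, the reductase that recycles vitamin K, ran from 2801 over 3332.5 to 3797 in controls and from 2493 over 3195 to 4133 with 4-HPAA. 4-HPAA replicate 2 was the lowest and replicate 3 the highest of all libraries, and the log2 difference was −0.03 ± 0.11. The model Gm21974 holds 44.7% of its 50-base stretches, so its own level is uncertain. The 7 vitamin K-dependent proteins, F2, F7, F9, F10, Proc, Pros1 and Proz, had positive differences from 0.07 to 0.28, and 3 of them (42.9%) had an unadjusted p under 0.05, against 7.26% of all tested genes on the higher side. Not all of these signs held: F2 was at −0.05 with quantile normalisation, F9 at −0.0034 without 4-HPAA replicate 1, and Proc at −0.02 without control replicate 5 and 4-HPAA replicate 3. Gas6, a growth factor that is also vitamin K-dependent and stands outside the 32, was at −0.16 ± 0.16, and was named after its value was seen.

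Per kilobase of the principal transcript in GENCODE M21, the levels spanned several orders of magnitude. In controls Apoh (46809 ± 4486 per kb, SD), Fgg (35442 ± 4010) and Kng1 (31734 ± 3284) were highest, and F3 (81.9 ± 15.6), Tfpi (67.8 ± 11.9) and Thbd (19.9 ± 5.49) lowest. Vtn (31555 ± 3125) and Fga (30581 ± 3474) lay within the spread of Kng1. With 4-HPAA Apoh (46179 ± 3477) was still first and Fgg (44609 ± 6206) next, within its spread, and Fgl1 moved from place 15 to place 10, at 5497.5 and 14453 per kb. These levels assume that the authors' counts cover the principal transcript. The 32 genes together took 2.65 to 3.07% of the library total in controls and 2.92 to 3.73% with 4-HPAA.

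Another 37 genes of haemostasis, from a list of receptors, activators, inhibitors and trafficking proteins outside the 32, were looked up, and 31 were in the table and tested. In limma the smallest adjusted p among them was 0.148. At an unadjusted p under 0.05, 5 were higher (16.1%) and 7 lower (22.6%), against 7.26% and 7.56% of all tested genes. Without 4-HPAA replicate 1 or 5 the higher side held 3. Of the 16 with a mean value under 1000, 14 had negative differences, while of the 15 with a mean of at least 1000, 11 had positive ones. Of the 32 genes, all 3 with a mean under 1000 had negative differences, and 25 of the 29 others positive ones. Among all tested genes, positive differences were found for 48% of the 9417 with a mean under 1000 and for 54.7% of the 3303 others. The boundary of 1000 was chosen after the values were seen.

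On the higher side were Habp2, a plasma protease that can activate factor VII (0.32 ± 0.09), and Serping1, the C1 inhibitor that blocks kallikrein and factor XIIa (0.37 ± 0.11). Lower were Plau, the urokinase activator of plasminogen (−0.73 ± 0.19), Adamts13, which cuts von Willebrand factor and is made by stellate cells (−0.39 ± 0.12), and Anxa2, a cell-surface receptor for plasminogen (−0.98 ± 0.32). Groups did not overlap for 0.307% of all tested genes with 4-HPAA higher and for 0.354% with it lower. Adamts13 was the 1 gene of this list whose groups did not overlap, with 145 to 172 in controls and 91 to 139 with 4-HPAA. Others with an unadjusted p under 0.05, named after their values were seen, were Serpine2 (1.18 ± 0.45), Lrp1 (0.29 ± 0.12) and C4bp (0.26 ± 0.10) on the higher side. On the lower side they included Plat (−0.95 ± 0.39), Thbs1 (−0.94 ± 0.33) and Fgl2 (−0.79 ± 0.28).

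The plasminogen gene was thus on the higher side while the genes of its 2 activators, Plau and Plat, were on the lower side, at 23 to 69 and 3 to 36 over the 12 libraries. Stellate cell markers had 9 of 9 negative differences, while 49.8% of all tested genes had positive ones. Of these markers 6 (66.7%) were lower at an unadjusted p under 0.05, against 7.56% of all tested genes. Summed values of the stellate cell markers were 6892 to 10667 in control and 4222 to 8270 in 4-HPAA libraries. Their part in the genes of low level was not tested. Vwf, von Willebrand factor of endothelium and platelets, was at −0.03 ± 0.24 and F8, factor VIII, at −0.06 ± 0.17. Of 9 platelet markers, 4 were in the table, with sums of 169 to 271 in control and 143 to 205 in 4-HPAA libraries, and Ppbp, Gp1bb, Gp9, Gp6 and Treml1 were not.

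**Figure D4:**
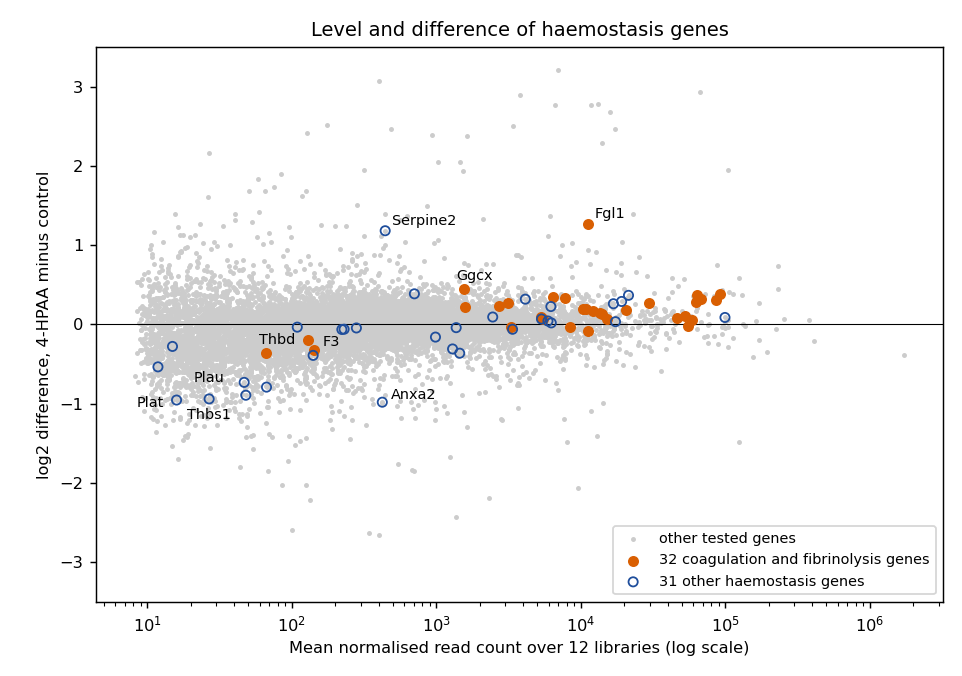
Log2 difference, 4-HPAA minus control, against the mean normalised read count over 12 libraries (log scale) for all 12720 tested genes (grey), the 32 coagulation and fibrinolysis genes (orange) and 31 other haemostasis genes (blue rings). Orange points at a mean of at least 1000 lie mostly above 0, with 25 of 29 positive against 54.7% of all tested genes at that level, and most rings at low values lie below 0.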

How the data were processed

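Liver RNA was sequenced as 12 directional TruSeq libraries on a NovaSeq instrument, per the labels' protocols. FastQC 0.11.9, cutadapt, STAR, HTSeq, DESeq2 1.28.1, edgeR and GRCm38 are named in the submitters' processing notes, without role or order. The deposited values are whole numbers. Some libraries skip low integers (at most 6 between 5 and 59, in 4-HPAA replicate 1), and others, such as 4-HPAA replicate 4, skip 0 there. The values were therefore handled as a score: read counts scaled per library and rounded by the authors. Transcript IDs were matched to GENCODE M21 (GRCm38), which named 13203 of 13267. Whether counting used strand: not given in the sources used here.

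Limma 3.58.1 in R 4.3.3 (trend, robust) was run on log2(value + 1) for genes with at least 10 in at least 6 libraries. This understates the differences of low genes. P-values are two-sided and were adjusted by Benjamini-Hochberg over all 12720 genes. The script was tested on simulated data. Depth is known only through scaled totals. Alternatives were other pseudocounts, filters, scalings, variance settings, array weights, a replicate block and libraries left out. The 32 genes and all lists were chosen with earlier results of these data known. Genes shown by their range are the fibrinogen chains and up to 3 members of smallest p per role, with F3, Tfpi and Apoh added after their values were seen. Of the other list, up to 5 of smallest p, Vwf and F8 are named, and 1 gene of that list is not reported here by name. The liver transcription factors had 7 of 9 positive differences, Kupffer cell and macrophage markers 4 of 9, erythroid 1 of 5, cholangiocyte 2 of 5 and lymphocyte 0 of 2. Figures used matplotlib 3.10.9.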

Additional observations from a re-analysis of the deposited data

Results flagged for a closer look

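In each group of 6 livers, the gap between the most extreme liver and its neighbour was compared with the whole range of the group, by Dixon's 95% critical value for 6 samples. Over the 32 genes this covered 64 groups, and chance flags about 1 group in 20. In 3 groups a liver stood apart, which is near that share. F7 was 2237 in control replicate 5, with the other controls at 2813 to 3115. Vtn was 44130 in the same liver, against 56287 to 59264 in the other controls. F13b was 3705 in 4-HPAA replicate 3, with the other 4-HPAA livers at 5632 to 6235.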

How the results depend on the processing

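The count of the 32 genes on the higher side at an unadjusted p under 0.05 was 14 and lay between 11 and 17 over 24 alternatives (11 to 17 with 1 library left out), and the median log2 difference of the 32 between 0.10 and 0.21 (0.13 to 0.21 with 1 library left out). The count on the lower side was 0, and 0 to 1 with 1 library left out. The count with an adjusted p under 0.05 was 0, but 1 with array weights (Ggcx) and 0 to 3 with 1 library left out, the 3 being Ggcx, Vtn (0.44 ± 0.09) and Fgl1 (1.49 ± 0.30) without 4-HPAA replicate 4 (limma, adjusted p = 0.0197, 0.0396 and 0.0346). Over all tested genes that count was 0, but 139 with array weights, 11 with the replicate block and 0 to 193 with 1 library left out, 193 without 4-HPAA replicate 4. The labels number both groups alike, but same-numbered libraries deviated together in part only, with correlations of −0.18 to 0.28, so the numbers were not taken to pair them. With the replicate block 13 of the 32 genes were on the higher side. Other haemostasis genes on the higher side numbered 5, but 3 with quantile normalisation, 8 with array weights and 3 to 6 with 1 library left out (3 without 4-HPAA replicate 1 or 5). Those on the lower side numbered 7, but 3 with the filter of at least 50, and 5 to 9 with 1 library left out. Signs turned for genes near 0. With quantile normalisation F2 was at −0.047, Kng1 at −0.107 and Serpinc1 at −0.0096, and without control replicate 5 and 4-HPAA replicate 3 Proc was at −0.018. With 1 or these 2 libraries left out Apoh ranged from −0.098 to 0.014, Vkorc1 from −0.154 to 0.037, Kng1 from −0.0037 to 0.088 and F9 from −0.0034 to 0.216. The causes were not tested. Scaled and rounded values limit what can be said of genes at low values, such as Thbd and Tfpi.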
